A study of Mus musculus with 25 samples.

Results

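Bone morphogenetic protein (BMP) signalling was followed through 8 genes in mouse ovarian follicles grown in alginate. They were the antagonist Grem1, the ligands Bmp2 and Bmp4, the receptors Bmpr1b and Bmpr2, and the target genes Id1, Id2 and Id3. The genes were picked by symbol, with measured values of these arrays already known, and they carried 13 of the 25697 probes. All 8 were among the 10688 genes that passed the detection filter, which asked that 3 or more of the 20 follicle arrays show a probe with a detection p below 0.05. Bmp2 passed on exactly 3 arrays. Because of that choice, the differences of these 8 genes between days are given as a description, without a test.

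RNA came from multilayered secondary follicles, 150 to 180 µm across, of CD-1 mice aged 16 days. Each follicle was dissected free, enclosed alone in 3% alginate and grown in medium with 10 mIU/ml follicle-stimulating hormone (FSH), 3 mg/ml bovine serum albumin, 1 mg/ml fetuin, selenium at 5 ng/ml, and transferrin and insulin at 5 µg/ml each. The groups were day 0, before culture (5 arrays), and days 2, 4, 5, 6 and 8 of culture (3 arrays each), hybridised to Illumina bead arrays. Each array held a pool of 20 to 40 whole follicles, so its RNA came from oocyte, granulosa, theca and any attached stromal cells together. In such pools, fewer cells of a type and less RNA per cell cannot be told apart. A further 5 arrays were labelled brain reference. The day 0 titles mark those arrays as repeats of a reference, which may be repeats of 1 pool, and p-values then measure the spread between arrays, which may be technical.

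BMPs are secreted dimers that bind a type I receptor such as BMPR1B together with a type II receptor such as BMPR2. The receptor complex phosphorylates SMAD1, SMAD5 and SMAD9, which enter the nucleus with SMAD4 and switch on genes that include Id1, Id2 and Id3. Gremlin, chordin, noggin and follistatin are secreted proteins that bind the ligands and keep them from the receptors. In the ovary, BMP4 is known as a product of theca and stromal cells, BMPR1B as a receptor of granulosa cells and oocytes, and GDF9 and BMP15 as factors made by the oocyte that act on granulosa cells.

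Promoter sequences are shown for 4 of the genes whose levels moved in culture: Grem1, Bmp4, and the Id2 and Id3 targets. Each holds the 250 bases before the RefSeq start site (build GRCm38.p6), read 5′ to 3′ on the gene's strand, and capitals mark the GC-rich SMAD element GGCGCC. RefSeq promoter entries were matched for 6 of the 8 genes.
Grem1 (chr2:113758649-113758898, minus strand): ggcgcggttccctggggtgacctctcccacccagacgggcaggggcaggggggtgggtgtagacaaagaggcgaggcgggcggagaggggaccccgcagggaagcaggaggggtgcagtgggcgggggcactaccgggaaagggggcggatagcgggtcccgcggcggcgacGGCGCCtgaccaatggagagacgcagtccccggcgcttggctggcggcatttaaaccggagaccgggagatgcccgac
Bmp4 (chr14:46390670-46390919, minus strand): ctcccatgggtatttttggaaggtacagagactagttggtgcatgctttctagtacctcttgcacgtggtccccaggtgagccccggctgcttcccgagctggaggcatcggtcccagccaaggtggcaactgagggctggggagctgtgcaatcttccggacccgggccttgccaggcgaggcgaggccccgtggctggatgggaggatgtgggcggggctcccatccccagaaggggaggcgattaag
Id2 (chr12:25096093-25096342, minus strand): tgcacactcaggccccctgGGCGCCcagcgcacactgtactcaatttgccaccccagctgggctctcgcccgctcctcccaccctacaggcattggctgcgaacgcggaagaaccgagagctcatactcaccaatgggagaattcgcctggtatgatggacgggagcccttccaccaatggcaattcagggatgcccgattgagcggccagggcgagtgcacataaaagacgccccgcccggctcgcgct
Id3 (chr4:136143572-136143821, plus strand): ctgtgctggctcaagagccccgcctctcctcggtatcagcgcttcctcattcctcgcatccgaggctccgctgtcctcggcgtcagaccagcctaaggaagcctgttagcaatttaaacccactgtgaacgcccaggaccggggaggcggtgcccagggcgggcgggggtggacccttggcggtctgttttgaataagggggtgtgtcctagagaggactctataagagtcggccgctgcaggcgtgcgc
GGCGCC, which reads the same on both strands, was found once in the Grem1 window, at -78 from the start, once in the Id2 window, at -231, and once in the Bmpr2 window, at -105. It was found in 9.59% of 32851 promoter windows of the same length. The short SMAD element CAGAC, searched on both strands, lay in 42.2% of all windows. It matched once in the Grem1 window and at 2 places in the Id3 window, at -167 and -68. In Bmpr1b, which had more than 1 window, it matched at -128 in 1 window and at -245 in another. The short element TGACG of cAMP response elements, found in 17.8% of windows, matched once in the Id3 window, at -170, where it shares bases with the CAGAC match at -167. GC content was 72.0% in the Grem1 window, 63.2% in that of Bmp4 and 62.8% in each of those of Id2 and Id3, against a median of 52.4% over all windows. A match describes letters only.

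The follicle arrays detected between 44.2% and 51.3% of probes, with 38 to 40 beads behind a median probe and a bead standard error of 4.01% to 5.19% of the signal. Cell type markers moved with the days. The summed level of 7 oocyte markers lay between 6866 and 8645 on day 8 and between 28590 and 30010 on day 0, and all 7 fell (limma, day 8 against day 0). That of 7 theca markers lay between 3030 and 3203 on day 0, between 1498 and 1625 on day 2 and between 7556 and 12116 on day 8. That of 7 granulosa markers lay between 87310 and 93596 on day 8 and between 54078 and 61542 on day 0, with 5 higher and 0 lower by limma. Markers of red blood cells (3 of 3), smooth muscle (4 of 4), surface epithelium (3 of 4) and endothelium (4 of 6, with 1 higher) also fell on day 8 against day 0. Of 7 stroma markers, 2 rose and 1 fell. Of 5 macrophage markers, 2 rose and 2 fell, and their sum lay between 519 and 1552 on day 8 and between 205 and 263 on day 0. By limma, 20.6% of all genes rose and 22.8% fell on day 8 against day 0. A pair of arrays stood apart within their day. The first repeat of day 6 had an oocyte marker sum of 2630, against 7082 and 8023 on the other day 6 arrays. Its stroma sum was 18322, against 10744 and 11425, and its granulosa sum was the highest of day 6 as well. The third repeat of day 8 had the theca sum of 12116 and the macrophage sum of 1552. The part of these shifts in the results below was not tested.

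Grem1 encodes gremlin 1, a secreted antagonist that binds BMP2 and BMP4. It was near background before culture and after 2 days, and became bright from day 4 on. Its probe ILMN_1228522 had bead signals of 117 to 186 on day 0 and 116 to 142 on day 2. On day 4 the 3 arrays read 321, 478 and 209, on day 5 they read 892, 627 and 776, on day 6 1966, 1641 and 1476, and on day 8 1870, 2279 and 3303. The beads of 1 array gave these signals with standard errors of 3.39% to 5.87%. After background correction and normalization, log2 levels were 5.47, 5.65, 5.37, 5.47 and 5.39 on day 0. They were 5.41, 5.83 and 4.95 on day 2, then 8.56, 8.37 and 7.87 on day 4, and 9.88, 9.91 and 9.85 on day 5. Day 6 gave 11.03, 10.67 and 10.84, and day 8 gave 10.88, 11.33 and 11.26. Days 0 and 2 overlapped, days 4, 5 and 6 each lay wholly above the days before them, and days 6 and 8 overlapped.

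Day means of Grem1 were 5.47 ± 0.11 (SD, n = 5) on day 0 and 5.40 ± 0.44, 8.26 ± 0.36, 9.88 ± 0.03, 10.85 ± 0.18 and 11.16 ± 0.24 on days 2, 4, 5, 6 and 8 (n = 3 each). The difference of day 2 from day 0 was -0.08 on the log2 scale (SE 0.18). Day 4 was 7.30-fold above day 2, a log2 difference of 2.87 (SE 0.20), day 5 was 3.06-fold above day 4, and day 6 was 1.96-fold above day 5. Day 8 differed from day 6 by 0.31 (SE 0.20). Over the whole culture Grem1 was 51.5-fold higher on day 8 than on day 0, a log2 difference of 5.69 (SE 0.18). The size depended on the scale: the log2 difference was 4.02 without background correction and 2.91 in the authors' deposited log2 values, where day means were 10.81 on day 8 and 7.90 on day 0.

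**Figure D1:**
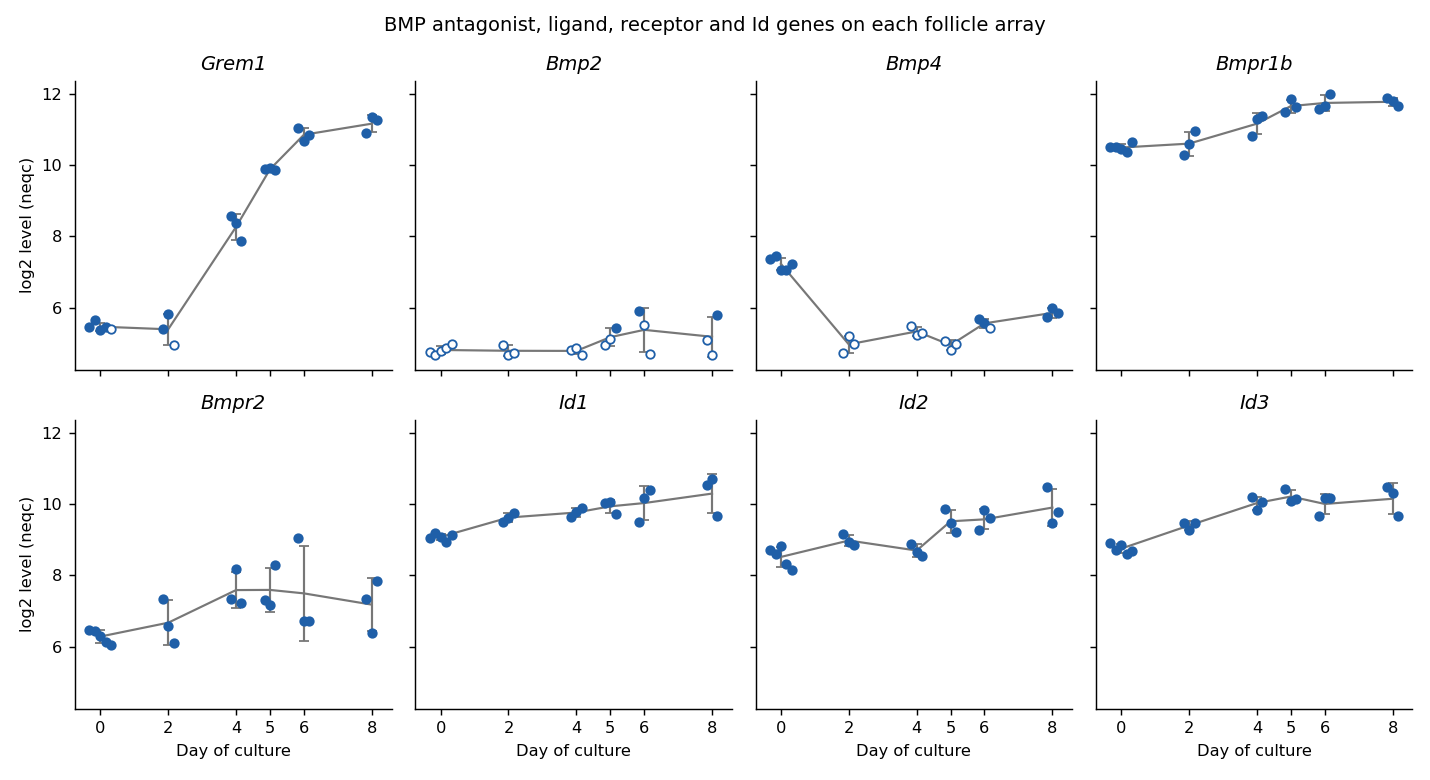
Normalized log2 levels of the 8 genes (vertical axes) by day of culture (horizontal axes), with 1 point per array, filled where the detection p was under 0.05, and lines with bars for the day mean and SD. Grem1 is higher from day 4 on, Bmp4 is near background on days 2 to 5, Bmpr1b and the Id genes lie higher late in culture, Bmpr2 spreads widely within each cultured day, and Bmp2 is above background on 3 arrays.

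Bmp4 was the gene of the 8 that lost signal. It encodes a ligand that in the rodent ovary is known from the theca. Levels on day 0 were 7.37, 7.44, 7.05, 7.05 and 7.23, with all 5 arrays above background. Day 2 gave 4.73, 5.2 and 4.99, day 4 5.48, 5.25 and 5.29, and day 5 5.08, 4.81 and 4.98, and on none of those 9 arrays was the probe above background. It returned above background on 2 of 3 arrays on day 6 (5.68, 5.58 and 5.43) and on 3 of 3 on day 8 (5.73, 6.00 and 5.84). Every cultured array lay below every day 0 array. A fold against a day with no array above background is a lower bound, taken from the lowest detected level of each array. Bmp4 was at least 3.62-fold lower on day 2, at least 3.39-fold lower on day 4 and at least 3.23-fold lower on day 5 than on day 0. On day 8 it was 2.59-fold lower than on day 0, a log2 difference of -1.37 (SE 0.13), and at least 1.40-fold higher than on day 2. Without background correction the day 2 difference from day 0 was -0.98 and in the authors' deposited log2 values -0.51.

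Several cell type lists held markers that were lower on day 2 than on day 0, as Bmp4 was. Those that fell by limma were 4 of 4 surface epithelium, 3 of 3 red blood cell, 3 of 4 smooth muscle and 4 of 7 oocyte markers. Of 6 endothelium markers 3 fell and 1 rose, and of 7 theca markers 1 fell and 2 rose. Of 7 stroma markers 1 fell and 3 rose, and of 5 macrophage markers 1 fell and 1 rose. Of 7 granulosa markers 0 fell and 3 rose. Of all genes tested, 13.1% fell and 12.1% rose. The stroma sum lay between 10521 and 11791 on day 2 and between 7174 and 7864 on day 0. The surface epithelium sum lay between 850 and 876 on day 2 and between 2223 and 2469 on day 0, and the red cell sum between 74.8 and 93.1 on day 2 and between 2358 and 3251 on day 0. The oocyte sum lay between 16003 and 19569 on day 2 and the endothelium sum between 1181 and 1417, against 1732 to 1997 on day 0 for the second of them. The theca sums are given above. Which cells gave the Bmp4 signal was not tested.

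Bmp2, a ligand of the same subgroup, was not above background on any array of days 0, 2 and 4. It was above background on 1 array each of day 5 (5.44), day 6 (5.92) and day 8 (5.78). The remaining arrays lay between 4.68 and 5.53. Each day overlapped with the next in the order of day means. The day 5 arrays lay wholly above those of day 4, where no array was above background. No fold is given.

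Bmpr1b encodes a type I BMP receptor. It was bright on every array and higher late in culture. Levels on day 0 were 10.50, 10.50, 10.45, 10.35 and 10.64. They were 10.27, 10.58 and 10.94 on day 2, 10.82, 11.27 and 11.38 on day 4, 11.49, 11.85 and 11.61 on day 5, 11.56, 11.66 and 11.98 on day 6, and 11.87, 11.79 and 11.65 on day 8. Day 2 overlapped with day 0, days 4 to 8 lay wholly above day 0, and days 5, 6 and 8 overlapped with each other. Day 8 was 2.43-fold above day 0, a log2 difference of 1.28 (SE 0.16). The summed level of granulosa markers was also higher on day 8 than on day 0, as given above, and its part in this difference was not tested.

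The array held 4 probes for Bmpr1b, and they disagreed. The probe used, ILMN_2812900, and ILMN_1216262 were detected on all 20 follicle arrays, and the second of them gave a day 8 minus day 0 difference of 1.42. ILMN_1228799 and ILMN_1219486 were detected on 0 of 20 arrays, with differences of 0.16 and 0.15. The pair without signal bounds nothing about the transcripts that the bright pair reads.

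Bmpr2 encodes the type II receptor of BMPs. It was higher on days 4 to 6 than before culture, but on each cultured day its arrays scattered more than those of the other 4 genes detected on all 20 arrays. Day 0 levels were 6.47, 6.45, 6.31, 6.15 and 6.06. Day 2 gave 7.34, 6.58 and 6.1, day 4 7.35, 8.18 and 7.24, day 5 7.31, 7.17 and 8.3, day 6 9.04, 6.73 and 6.72, and day 8 7.33, 6.38 and 7.84. The SD within a day was between 0.52 and 1.34 on cultured days and 0.18 on day 0. Days 4, 5 and 6 lay above day 0, and days 2 and 8 overlapped with it. The day 4 difference from day 0 was 1.30 (SE 0.45) and that of day 8 was 0.89 (SE 0.45), or 0.56 without the third repeat of day 8. A second probe, ILMN_2614322, gave 1.25 for day 8 with no overlap.

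**Figure D2:**
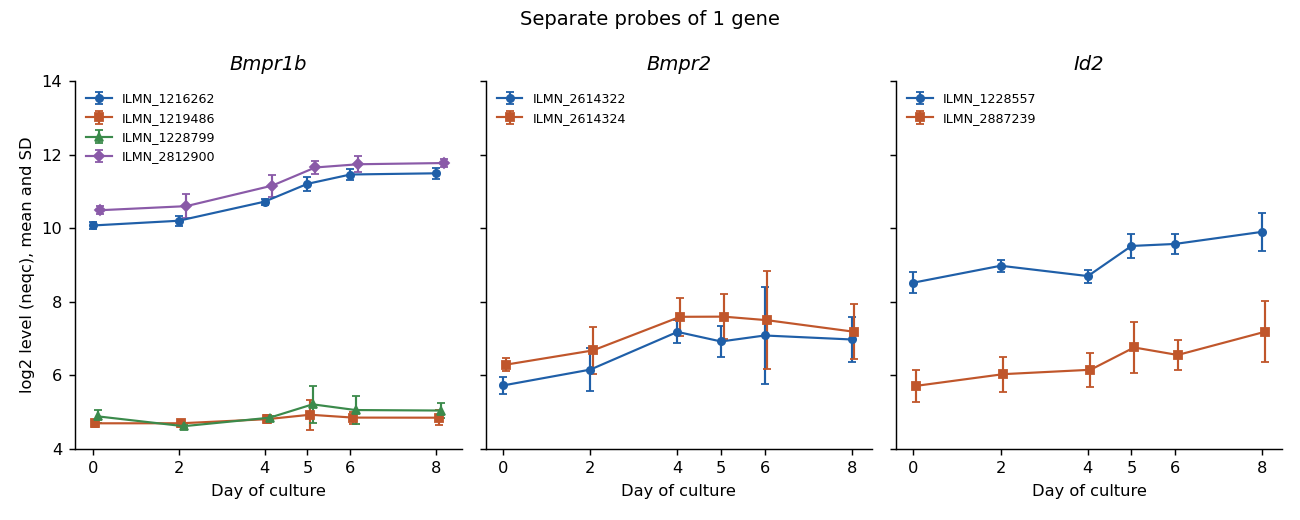
Day means with SD bars (vertical axes, normalized log2 level) by day of culture for every probe of the 3 genes with more than 1 probe. Both Bmpr2 probes and both Id2 probes have higher means on every cultured day than on day 0, though not every step between days has the same direction on both, and of the 4 Bmpr1b probes the bright pair lies higher late in culture while the dim pair stays near 5.

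Id1, Id2 and Id3 encode inhibitors of DNA binding, helix-loop-helix proteins that lack a DNA-binding region and capture partner transcription factors. All 3 lay wholly above their day 0 arrays on days 5, 6 and 8. Id1 had levels of 9.05, 9.19, 9.07, 8.94 and 9.14 on day 0. Cultured arrays read 9.50, 9.61 and 9.75 on day 2, 9.63, 9.76 and 9.89 on day 4, 10.03, 10.06 and 9.72 on day 5, 9.50, 10.18 and 10.40 on day 6, and 10.53, 10.69 and 9.65 on day 8. Every cultured array lay above every day 0 array, and each cultured day overlapped with the next. Day 2 exceeded day 0 by 0.54 (SE 0.21) and day 8 by 1.21 (SE 0.21), or 2.32-fold. The third repeat of day 8 was the low one, and without it the day 8 difference was 1.53.

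Id3 was higher from day 2 on and again higher on day 4. Its day 0 arrays read 8.91, 8.71, 8.84, 8.59 and 8.70 and its day 2 arrays 9.46, 9.26 and 9.48. Day 4 gave 10.20, 9.83 and 10.05, day 5 10.41, 10.10 and 10.13, day 6 9.66, 10.17 and 10.17, and day 8 10.48, 10.31 and 9.65. Day 2 lay wholly above day 0 and day 4 wholly above day 2, after which the days overlapped. Differences from day 0 were 0.65 (SE 0.17) on day 2, 1.28 on day 4, 1.46 on day 5 and 1.40 on day 8, the last a 2.63-fold difference. Without the third repeat of day 8 the day 8 value was 1.65.

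Id2 was highest from day 5 on. It read 8.72, 8.60, 8.82, 8.31 and 8.14 on day 0, 9.16, 8.93 and 8.84 on day 2, 8.89, 8.64 and 8.55 on day 4, 9.86, 9.46 and 9.23 on day 5, 9.27, 9.83 and 9.61 on day 6, and 10.48, 9.46 and 9.76 on day 8. Day 2 lay wholly above day 0, with a log2 difference of 0.46 (SE 0.21). Day 4 overlapped with day 0, and days 5, 6 and 8 lay above both day 0 and day 4. Day 8 was 2.61-fold above day 0, a log2 difference of 1.38 (SE 0.21), and the second, dimmer probe ILMN_2887239 gave 1.47. The difference in timing between Id3 and Id2 was not tested.

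Across the 8 genes, 6 had no overlap between the arrays of day 8 and day 0: Grem1, Bmpr1b, Id1, Id2 and Id3 lay higher and Bmp4 lower. Of all genes tested, 46.7% had no overlap between those days. By limma with Benjamini-Hochberg adjustment over all genes, at a threshold of 0.05, 2 of the 8 passed for day 2 against day 0, where 25.1% of all genes did. For day 8 against day 0, 6 of 8 passed, where 43.4% of all genes did, and for day 8 against day 2, 6 of 8, where 22.4% did. For day 4 against day 2, 2 of 8 passed (Grem1 and Id3), where 8.39% of genes did. Grem1 alone passed when day 5 was set against day 4, where 0.954% of genes did, and again when day 6 was set against day 5, where 1.34% did. As the genes were chosen on these contrasts, nothing is read from these counts. The comparisons with day 0 share its 5 arrays.

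Other genes of the pathway were taken from a list of 60, drawn up with earlier results of these data known. The counts and p-values of its genes below are therefore no independent test. Of the 60 genes, 33 passed the detection filter, 22 did not, among them the antagonist Nog and the inhibitory Smad7, and 5 had no probe. Between the 6 days, 22 of the 33 differed (moderated F test of limma, adjusted p under 0.05), where 5339 of all 10688 genes, or 49.95%, did. For day 8 against day 0, 20 of 33 changed, 9 up and 11 down, and 43.4% of all genes changed. The median log2 change of the 33 was -0.20, where that of all genes tested was -0.00. For day 8 against day 2, 14 changed, 4 up and 10 down, with a median of -0.29, and 22.4% of all genes changed. For day 2 against day 0, 5 changed, 3 up and 2 down, with a median of -0.08, and 25.1% of all genes changed. With the day 0 arrays averaged into 1 sample, 8 changed on day 8 against day 0 and 0 on day 2 against day 0, where 2 had an unadjusted p under 0.05.

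Among other antagonists, 5 of 8 changed on day 8 against day 0, where 43.4% of all genes did. Chrd, Fst, Fstl1 and Nbl1 rose, and Bmper fell. Chrd, which encodes chordin, averaged 6.31 ± 0.11 on day 8 and 5.13 ± 0.28 on day 0, where it was above background on 1 of 5 arrays, a change of 1.18 (adjusted p = 3.91e-06, limma). On days 2 and 4 it was above background on no array, and it was at least 1.92-fold higher on day 8 than on day 2. Fst, follistatin, which binds activin and several BMPs, averaged 12.19 ± 0.32 on day 8 and 11.31 ± 0.18 on day 0, a change of 0.89 (adjusted p = 0.00336), and was highest on day 6 at 12.75 ± 0.49. Fstl1 (0.46) and Nbl1 (0.51) rose. Bmper, a secreted BMP-binding protein, fell by 1.78 (adjusted p = 2.18e-07) to 7.22 ± 0.16 on day 8, against 9.00 ± 0.19 on day 0. Twsg1, a cofactor of chordin, did not pass on day 8 against day 0 (0.06) or on day 2 (0.44).

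All 8 ligands of the list that were tested changed on day 8 against day 0, 7 of them down, where 43.4% of all genes changed. Amh, anti-Müllerian hormone, made by granulosa cells of small growing follicles, averaged 9.83 ± 0.32 on day 0 and 9.35 ± 0.57, 8.05 ± 0.55, 6.01 ± 0.69 and 5.02 ± 0.35 on days 2, 4, 5 and 6, and on day 8 no array was above background. It was at least 21.0-fold lower on day 8 than on day 0 (adjusted p = 6.57e-11) and at least 15.1-fold lower than on day 2. The oocyte factors Bmp15 and Gdf9 fell as well. Bmp15 averaged 10.23 ± 0.21 on day 8 and 12.73 ± 0.16 on day 0, a change of -2.50 (adjusted p = 5.80e-09). Gdf9 averaged 11.74 ± 0.13 on day 8 and 14.11 ± 0.16 on day 0, a change of -2.37 (adjusted p = 5.31e-10). The oocyte markers fell over the same days, as given above, and the part of the oocyte share of RNA in these falls was not tested. Bmp6 was above background on every array of days 0 and 2 and on none of days 5, 6 and 8, and was at least 2.21-fold lower on day 8 than on day 0 (adjusted p = 7.59e-07). Bmp5 (-0.88, above background on 1 of 3 day 8 arrays), Bmp7 (-0.73) and Gdf10 (-0.81) fell. The calls of Bmp5, Bmp7 and Gdf10 did not hold with day 0 averaged into 1 sample. Bmp3, which encodes a BMP that opposes others in bone, was the 1 that rose, by 0.55 (adjusted p = 9.89e-04).

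Of 9 receptors and co-receptors tested, 4 changed on day 8 against day 0, a share close to the 43.4% of all genes. Acvr1, a type I receptor, rose by 0.95 (adjusted p = 5.21e-05), Bmpr1a, the other type I receptor of BMP2 and BMP4, rose by 0.34 (adjusted p = 0.0361), and the co-receptor Rgma rose by 1.05. Rgma rose early: it averaged 7.34 ± 0.31 on day 2 and 5.85 ± 0.30 on day 0, a change of 1.49, the largest of the 5 changes found on day 2. Eng, endoglin, a co-receptor known from endothelial cells, fell by 1.77 (adjusted p = 2.13e-06, above background on 2 of 3 day 8 arrays). Of 6 endothelial markers 4 fell and 1 rose, and the part of the endothelial share of RNA in the fall of Eng was not tested. Amhr2, the receptor of anti-Müllerian hormone, did not pass, with 12.32 ± 0.36 on day 8 and 12.61 ± 0.05 on day 0.

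Of 4 signal transducers tested, 1 changed on day 8 against day 0, where 43.4% of all genes did. Smad5 fell by 0.47 on day 8 against day 0, while Smad1 (-0.11), Bmp2k (-0.38, above background on 2 of 3 day 8 arrays) and Smad6 did not pass. Smad6, an inhibitory SMAD that BMP signalling itself induces, was above background on 2 of 3 arrays on day 8 and on 0 of 5 on day 0. Among other targets, Tob1 rose by 1.10 (adjusted p = 3.50e-04), Msx1, a homeobox gene induced by BMPs in the embryo, fell by 0.72 (adjusted p = 0.00231, above background on 2 of 3 day 8 arrays), and Hey1 did not pass (-0.05). The calls of Smad5 and Msx1 did not hold with day 0 averaged into 1 sample. Bmp1, a protease that cleaves chordin, rose by 0.42 on day 2 against day 0 and stood at -0.00 on day 8.

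**Figure D3:**
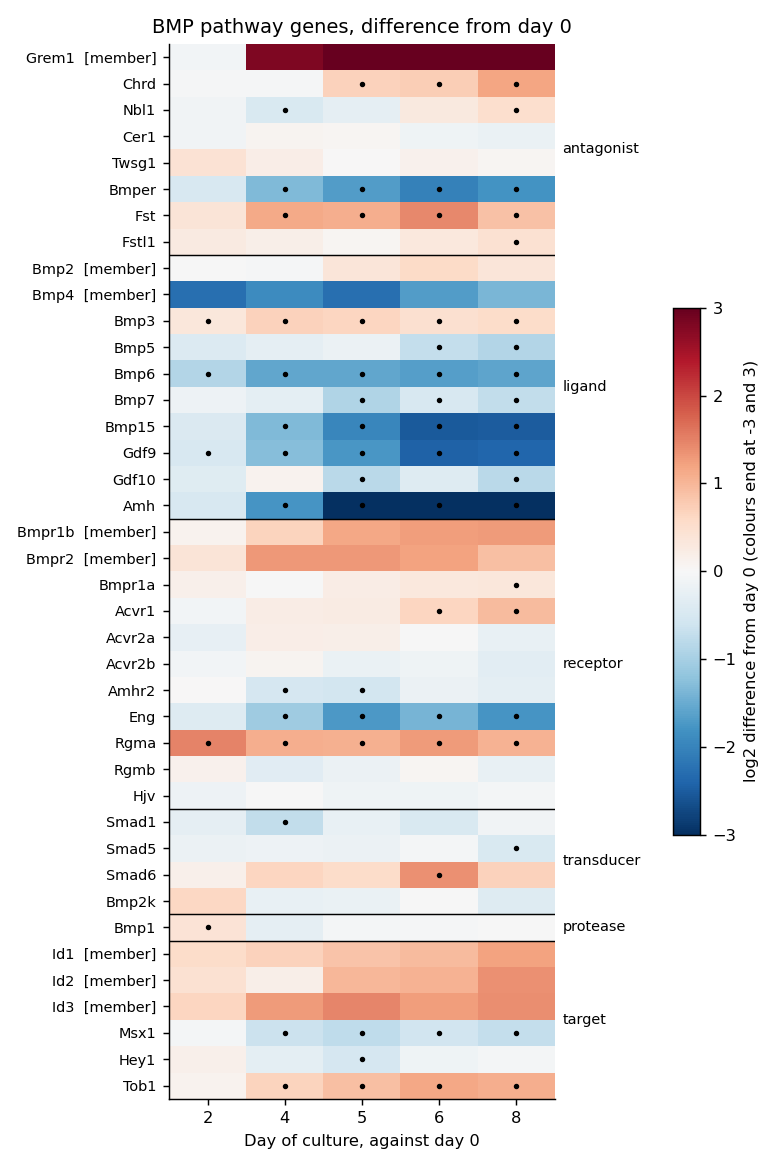
Fitted log2 differences of days 2, 4, 5, 6 and 8 from day 0 (columns) for the 8 genes, tagged member, and the other pathway genes tested, 1 of which is not shown (rows, grouped by role), in red where higher and blue where lower than day 0, with dots where a pathway gene passed the threshold; colours of days with no array above background are fitted values only. Grem1 is deep red from day 4 on, ligands are mostly blue (Amh was at least 21.0-fold lower on day 8), and the Id genes are red on every cultured day.

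The genes most like each of the 8 were sought by Pearson correlation over the 20 follicle arrays. Arrays of a day share culture time, so 2 genes that both change with the days correlate, and no p is given. Among the 3 genes most like Grem1 were Fhl1 (r = 0.981) and Serpina3c (0.974), and Bmp4 ran most like Klf9 (0.968), Csrnp1 (0.963) and Sgms2 (0.962). Bmpr1b was nearest to Btd (0.951), Cyp2c70 (0.950) and Lrrtm3 (0.949), and Bmpr2 to Nr5a2 (0.949), Heatr5a (0.943) and Gpat4 (0.933). The 3 Id genes had different nearest genes: Vps26c (0.927), Nicn1 (0.926) and Alkbh3 (0.919) for Id1, Pon3 (0.944), Dnase1l1 (0.927) and Gosr1 (0.915) for Id2, and Htatip2 (0.954), Haghl (0.949) and Cdk19 (0.946) for Id3. For Bmp2, at background on most arrays, the highest value was 0.804, with Pdp2.

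The arrays labelled brain reference were set against day 0, a contrast outside the days over which the genes were followed. The genes were picked with measured values of these arrays known, and day 0 enters here too. The p-values of this comparison are therefore no independent test. The label did not match the RNA. Of 8 heart muscle genes, 7 were tested and all 7 lay above every day 0 array: Myl3, a ventricular myosin light chain, averaged 15.23 ± 0.04 on the arrays labelled brain reference and 4.83 ± 0.23 on day 0, and Myh6, the atrial myosin heavy chain, averaged 14.86 ± 0.05 on the arrays labelled brain reference and 4.87 ± 0.12 on day 0 (SD, n = 5 each). Of 8 brain genes, 5 were tested and 2 lay above every day 0 array, with brain-labelled means from 5.33 to 7.67. The neuronal kinase Camk2a was among them, at 7.62 ± 0.26 against 4.79 ± 0.09 on day 0. What tissue these arrays hold was not tested further, and the values below describe the arrays as labelled.

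All 25 arrays were normalized together for this comparison, and 11258 genes were tested. The 5 arrays labelled brain reference are numbered as repeats of a reference too, and may be repeats of 1 pool. The p-values of this comparison then measure the spread between arrays, which may be technical on both sides. Of the 8 genes, 6 differed, 3 higher and 3 lower on the arrays labelled brain reference. Of all genes, 75.5% differed, 34.2% higher and 41.3% lower. Bmpr1b stood farthest apart: it averaged 5.72 ± 0.49 on the arrays labelled brain reference, above background on 2 of 5, and 10.38 ± 0.11 on day 0 (SD, n = 5 each), a difference of -4.66 (SE 0.18, adjusted p = 2.57e-17, limma). The other bright probe, ILMN_1216262, was above background on none of the 5 arrays labelled brain reference, with bead signals of 80.2 to 96.8, and on all 5 day 0 arrays, with bead signals of 1012 to 1764. Bmp4 averaged 8.41 ± 0.15 on the arrays labelled brain reference and 7.10 ± 0.18 on day 0, 2.48-fold higher (adjusted p = 9.35e-11). Grem1 was above background on 0 of 5 arrays labelled brain reference and on 4 of 5 on day 0 (difference -0.69, adjusted p = 1.34e-04), and no fold is given because the bound fell under 1.

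The Id genes differed less and not in 1 direction. Id1 was higher on the arrays labelled brain reference than on day 0, by 0.49 (adjusted p = 0.0103), as was Id2, by 0.54 (adjusted p = 0.00748), with no overlap of arrays. Id3 was lower by a difference of -0.33 (adjusted p = 0.0394), with overlap, and that call was lost in the authors' deposited log2 values (adjusted p = 0.178). It was also lost without background correction (adjusted p = 0.0582) and when any of several single arrays was left out. The calls of Id1, Id2 and Id3 did not hold with day 0 averaged into 1 sample. Bmpr2 (-0.48, adjusted p = 0.236, above background on 2 of 5 arrays labelled brain reference) and Bmp2 (-0.10, adjusted p = 0.610) did not pass. With day 0 averaged into 1 sample, 3 of the 8 differed. The arrays labelled brain reference were not averaged in any alternative.

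**Figure D4:**
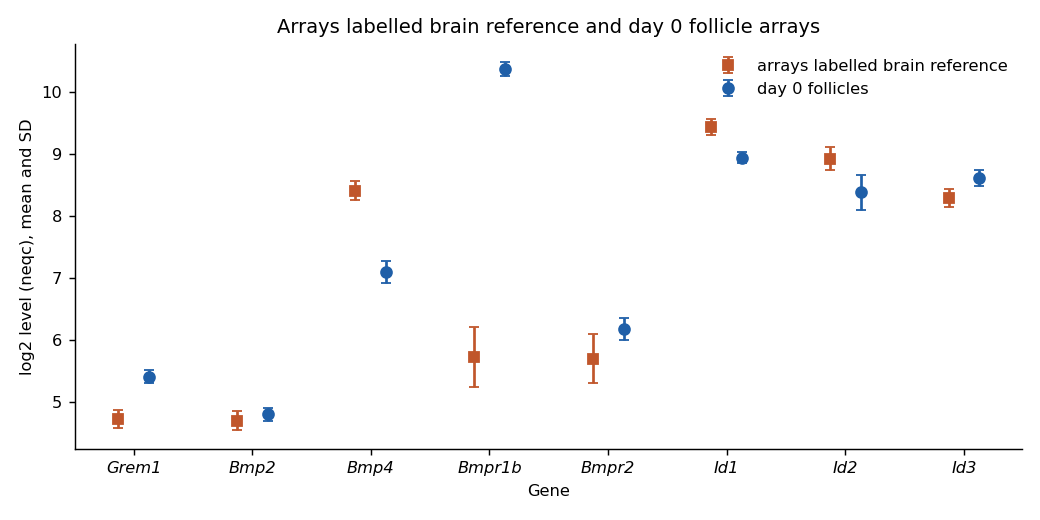
Mean normalized log2 level with SD bars (vertical axis) of the 8 genes (horizontal axis) on the 5 arrays labelled brain reference, drawn as squares at left, and the 5 day 0 follicle arrays, drawn as circles at right. Bmpr1b lies lower on the arrays labelled brain reference, where 2 of 5 were above background, and Bmp4 is 2.48-fold higher there.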

How the data were processed

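Total RNA of pooled follicles was hybridised to Illumina mouse bead arrays. Per the file headers, the deposited signal table gave, for each probe and array, an intensity (mean bead signal) with its standard error, a detection p-value and a number of beads, not normalized. The authors' second deposited table held log2 values for 23286 of the 25697 probes, already normalized. Neither that method nor the position of an array on its slide is stated in the labels or headers. Samples were grouped by the day in their labels, and 0 further columns of per-sample values were present.

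Follicle intensities were background-corrected and quantile-normalized with neqc (limma 3.58.1, R 4.3.3, background from the detection p, offset 16), on the log2 scale. The filter kept 14490 probes that 3 or more of 20 arrays detected at p below 0.05. Each symbol took its brightest probe (10688 genes). Symbols were updated with the RefSeq table of GRCm38.p6: 14307 of 18138 were current, 2905 were updated and 926 kept. One mean per day was fitted with lmFit and eBayes, with Benjamini-Hochberg adjustment over all genes and a threshold of 0.05. The code was tested on simulated data. For arrays, their number limits the precision.

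The 8 genes and all lists were chosen with earlier results of these data known, and the heart muscle and brain lists after an earlier result on the arrays labelled brain reference, heart muscle genes among them, was known. Named were the 8 genes and, per comparison, the 6 pathway genes with the largest change among those past the threshold and up to 4 of the brightest that were not past it. The other pathway genes named for day 8 against day 0 complete the count of each role and were chosen after their values were seen. For likeness, the 3 genes with the highest Pearson correlation were named. A pathway gene and a gene of that likeness list are not reported here, though counts include them. Alternatives covered background correction, offset, filter, probe choice, array weights, the replicate number as a block, day 0 as 1 sample, the authors' values, and leaving out each array.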

Additional observations from a re-analysis of the deposited data

Results flagged for a closer look

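Id1 on the arrays labelled brain reference was marked because 1 array stood far from the rest: its lowest array read 9.20 on the log2 scale, and the highest 9.54, in a group of 5. Dixon's test was applied to 16 groups of 5 arrays, of which chance alone marks about 1 in 20.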

How the results depend on the processing

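The count of other pathway genes changed on day 2 against day 0 was the least steady result. It was 5, and became 8 with an offset of 50, 17 with array weights, 3 with the replicate number as a block and 0 with day 0 counted as 1 sample, and it ranged from 2 to 8 when 1 array was left out. It was 3 without the first repeat of day 0 or of day 2, 2 without the second repeat of day 2, and 8 without the first repeat of day 6. Gdf9, Bmp1 and Bmp3 lost their day 2 call in the block (adjusted p = 0.148, 0.115 and 0.115), and Rgma and Bmp6 only with day 0 as 1 sample (adjusted p = 0.0706 and 0.140). Twsg1, not called, passed without background correction (adjusted p = 0.0345), among others. With day 0 as 1 sample, pathway counts were 8 for day 8 against day 0 (20 otherwise), 12 for the 6 days (22 otherwise), and 3 of the 8 genes differed for the arrays labelled brain reference (6 otherwise). Leaving out 1 array gave 18 to 20 for day 8 against day 0, 10 to 15 for day 8 against day 2, 19 to 24 for the 6 days, and 5 to 6 for the arrays labelled brain reference. The cause of these moves was not tested. None of the alternatives run reversed the direction of a called result. Replicate numbers showed no clear pairing of the arrays in their deviations from day means. The 45 same-number pairs had correlations of -0.42 to 0.56 with a median of -0.06, against a median of 0.03 for the other 120 pairs. Of 20 arrays, 2 lay closest to their own number. The labels give 3 independent experiments. With 3 arrays on most days, the correlations cannot exclude that arrays share an experiment. The log2 difference of Grem1 on day 8 against day 0 was 4.89 with an offset of 50. Grem1 lost its call on the arrays labelled brain reference in the authors' values (adjusted p = 0.0860). Bmp2 left the tested genes without the third repeat of day 5, the first of day 6 or the third of day 8, and under a detection p of 0.01. Genes near background, Bmp2, Bmp4 in culture and Grem1 before day 4, are limited by signal over background.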

Other observations

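Within a day, the arrays with the most Bmpr2 were often those with the least Id1. On 4 of 5 cultured days (days 2, 5, 6 and 8) the array highest in Bmpr2 was the lowest in Id1. On day 4 the second repeat was highest in Bmpr2 and the first repeat was lowest in Id1. Before culture, on day 0, the first repeat was highest in Bmpr2 and the fourth repeat was lowest in Id1. The array highest in Bmpr2 was also the highest in Bmp2 on days 2, 4, 5, 6 and 8. On days 2 and 4 Bmp2 was above background on no array. The array highest in Bmpr2 was the lowest in Id3 on days 4, 6 and 8, but not on days 2 and 5. For Id2 it was the lowest on days 5 and 6, the highest on day 2 and in between on days 4 and 8. On day 6 the array highest in Bmpr2 was the first repeat, with Bmpr2 at 9.04, Bmp2 at 5.92, Id1 at 9.50 and Id3 at 9.66. Its oocyte marker sum was 2630, where the other day 6 arrays had 7082 and 8023. Its sums for other cell types stood apart as well, among them stroma (18322, against 10744 and 11425) and granulosa (111948, against 86190 and 87843). On day 8 the array highest in Bmpr2 was the third repeat, with Bmpr2 at 7.84, Bmp2 at 5.78, Id1 at 9.65 and Id3 at 9.65. Its theca marker sum was 12116, where the other day 8 arrays had 7556 and 7892. Its macrophage sum was also the highest of day 8 (1552, against 519 and 952). These arrays were noticed after their values were seen, and no test was made. With 3 arrays on a cultured day, such matches also arise by chance.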
